A study of Mus musculus with 6 samples.

Results

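The genes described here are the 3 TAM receptor tyrosine kinases Axl, Mertk and Tyro3, the bridging molecules Gas6, Pros1 and Mfge8, and the surface receptors Cd93 and Timd4. They were chosen by symbol for their part in efferocytosis, the uptake of dead cells by phagocytes. Each of the 8 had 1 transcript cluster (the probe group of a gene on the array) of its own, among 29458 genes compared. Ribosome-bound mRNA was purified from CD11brGFP transgenic mice aged 2 to 3 months, and the design text and labels describe them as an equal mix of sexes in 1 place and as males only in another. All mice, controls included, carried a Flag- and EGFP-tagged RPL10a ribosomal protein under the CD11b promoter, a promoter of microglia and other myeloid cells. The control group was sham operated (3 arrays), and the stroke group was taken 24 h after tMCAO, transient middle cerebral artery occlusion (3 arrays). The labels give 6 mice and 3 biological replicates per group, without saying which mice went into which array, so p-values measure the spread between these samples.

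Dying cells expose phosphatidylserine on their outer membrane. GAS6 and protein S (the product of Pros1), related vitamin K-dependent proteins, bind this lipid with one end and a TAM receptor with the other. The receptor then drives engulfment and also dampens inflammatory signalling in the phagocyte. MFGE8 bridges the same lipid to integrins instead, and TIM-4, encoded by Timd4, binds it directly on resident macrophages. CD93 is a C-type lectin-like glycoprotein of endothelial and myeloid cells that was first described as a receptor for the complement protein C1q. In the brain, MERTK and AXL are known from microglia and other phagocytes and MERTK also from astrocytes, whereas TYRO3 is mainly neuronal.

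Some facts of the arrays bear on these genes. The log2 array medians ran from 5.23 to 5.35, and having 3 arrays per group limits the precision. Markers of neurons (mean signal 11.32) and of homeostatic microglia (7.33) both lay above these medians, and without arrays of unpurified RNA the cell type behind a change is not known. Nor can fewer cells of a type be told apart from less RNA per cell. Array 2 of each group was far from the remaining arrays on the leading principal component (48.89 in control and 34.61 in stroke, the rest below 0). Itgam, the gene of CD11b, was 6.17 ± 0.40 (SD, n = 3) in control and 7.01 ± 0.07 in stroke without passing the test (limma adjusted p = 0.276). Rpl10a was at 10.34 ± 0.15 and 10.42 ± 0.06.

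Promoter sequences of Pros1, Axl and Gas6 are shown because Pros1 was the member that rose, Axl had the next largest difference, and Gas6 is the close relative of Pros1 whose groups overlapped. They are RefSeq sequences on GRCm38.p6, 250 bases before to 50 bases after an annotated transcript start, written 5′ to 3′ on the strand of the gene, with matches to 6 searched motifs in capitals. The window of Pros1 is chr16:62854057-62854356 (plus strand), that of Axl chr7:25788684-25788983 (minus strand) and that of Gas6 chr8:13494486-13494785 (minus strand). The Axl window is set on a transcript start at 25788733, which lies 191 bases inside the annotated gene.
Pros1: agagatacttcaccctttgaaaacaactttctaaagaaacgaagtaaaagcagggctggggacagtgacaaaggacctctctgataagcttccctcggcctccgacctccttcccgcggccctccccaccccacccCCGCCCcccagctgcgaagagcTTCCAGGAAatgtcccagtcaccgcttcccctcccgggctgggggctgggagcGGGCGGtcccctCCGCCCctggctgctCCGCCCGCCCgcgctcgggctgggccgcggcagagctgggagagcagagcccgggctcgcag
Axl: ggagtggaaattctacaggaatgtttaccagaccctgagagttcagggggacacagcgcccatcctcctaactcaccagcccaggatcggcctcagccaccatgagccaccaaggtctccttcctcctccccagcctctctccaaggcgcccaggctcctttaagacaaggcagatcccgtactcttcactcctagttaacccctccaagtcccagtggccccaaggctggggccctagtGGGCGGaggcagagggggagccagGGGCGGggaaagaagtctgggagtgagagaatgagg
Gas6: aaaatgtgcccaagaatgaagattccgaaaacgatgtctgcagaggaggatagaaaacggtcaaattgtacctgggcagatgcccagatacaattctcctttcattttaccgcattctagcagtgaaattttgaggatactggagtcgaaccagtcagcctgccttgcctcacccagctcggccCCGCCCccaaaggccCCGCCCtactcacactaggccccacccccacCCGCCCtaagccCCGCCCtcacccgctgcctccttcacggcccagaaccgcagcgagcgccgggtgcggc

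Of the 8 genes, 7 had a promoter sequence in the table used. The motifs, read on both strands, were TTCNNNGAA (bound by STAT factors), GAAANNGAA (core of the interferon response element), TGANTCA (AP-1), GGANNTTCC (core of the NF-kB motif), GGGCGG (GC box) and CACGTG (E-box). The Pros1 window held 1 match to the STAT motif, TTCCAGGAA, starting at -92 from the transcript start, which overlapped no other match, and the other 6 windows held none. Among 32851 promoter windows of the same length, 8.3% held this motif. The GC box was found in 6 of the 7 windows, with 5 matches in Pros1 (2 of them overlapping each other), 2 in Axl and 4 in Gas6, and in 35.7% of all windows. The AP-1, NF-kB and E-box motifs had no match in the 7 windows, against 7.81%, 4.26% and 7.15% of all windows. The interferon response core had 1, in Timd4 at -77, against 8.56% of all windows. These are letter matches, and binding was not measured.

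Pros1 rose 24 h after the occlusion, and it was the only one of the 8 genes to pass the test. Its signal, on the log2 scale, was 6.00, 5.94 and 6.28 on control arrays 1, 2 and 3 and 7.30, 6.99 and 7.37 on the stroke arrays. The lowest stroke value lay 0.71 above the highest control value, and array 2 was the lowest of its group in control and in stroke. The means were 6.07 ± 0.18 and 7.22 ± 0.20 (SD, n = 3 arrays per group). The difference was 1.15 ± 0.16 (standard error; 95% interval 0.77 to 1.52), or 2.21-fold, with a limma adjusted p of 0.0362 over all genes.

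Over all genes, 0.421% rose (124 of 29458) and 0.00339% fell (1 gene) at the same threshold, an adjusted p under 0.05. Differences between same-numbered arrays were 1.29, 1.05 and 1.10 for Pros1, positive in 3 of 3. Since the groups did not overlap, any pairing of the arrays would give this sign. In the authors' deposited table Pros1 was 2.51-fold higher, with a false discovery rate of 0.044. The call was lost when single arrays were left out: the adjusted p lay between 0.0474 (without stroke replicate 2, where it still passed) and 0.188 (without control replicate 1), while the difference stayed between 1.07 and 1.26. It was 0.0582 without both arrays numbered 2. Pros1 spans 62854307 to 62929346 of chromosome 16, and no other annotated gene overlaps it there.

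**Figure D1:**
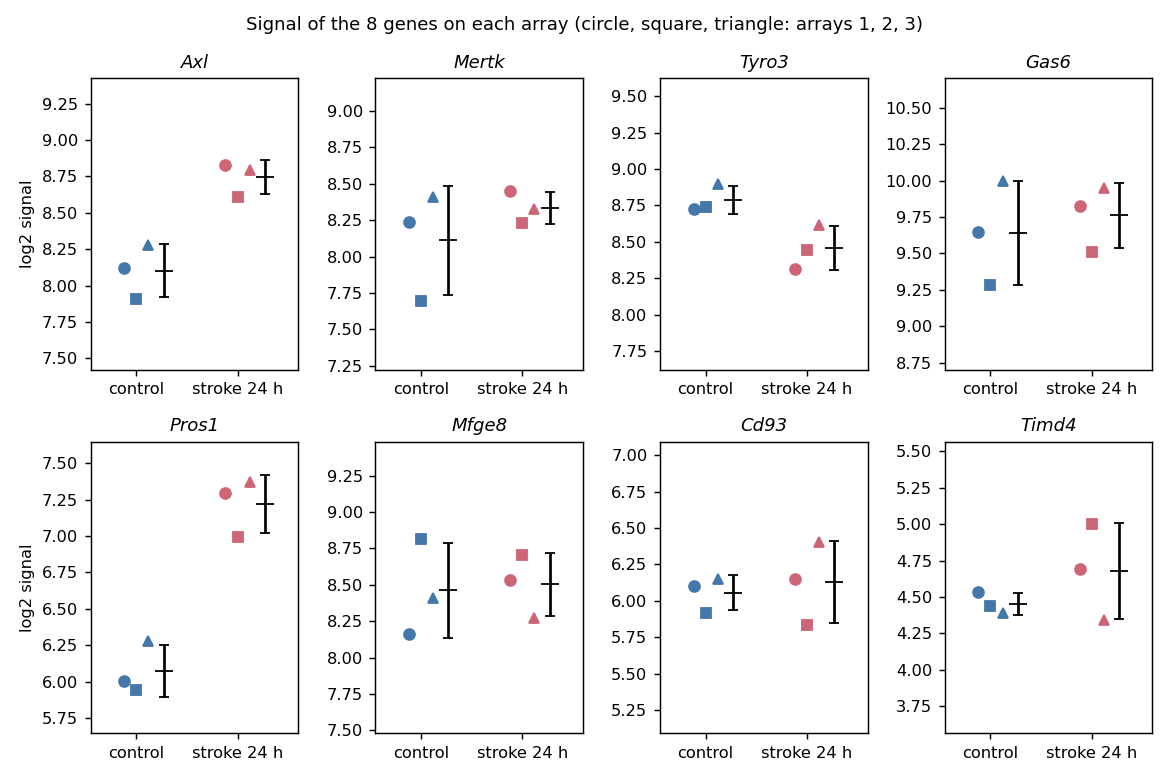
Log2 signal (vertical axis) of each gene on the 3 control (blue) and 3 stroke (red) arrays; the symbol gives the array number and black marks show mean ± SD, and each panel spans the same 2 log2 units. Pros1 and Axl lie higher on all 3 stroke arrays than on any control array, Tyro3 lies lower, and the groups of the other 5 genes overlap.

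Gas6, the other ligand of the TAM receptors, did not share this rise. Its control values were 9.65, 9.28 and 9.996 and its stroke values 9.83, 9.51 and 9.95. The range of the stroke arrays lay within that of the control arrays, and array 2 was again the lowest of each group. The difference was 0.12 ± 0.21 (95% interval -0.36 to 0.60; adjusted p = 0.9998 by limma), which leaves room for changes of either sign. Without control replicate 2 it was -0.06. On the annotation, Gas6 (13465374 to 13494535 of chromosome 8) overlaps the gene model of Tmem255b, and the strand of the probes was not checked.

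The log2 signal of Gas6 minus that of Pros1, taken within each array, was 3.65, 3.34 and 3.72 in control and 2.53, 2.52 and 2.58 in stroke. It was thus lower on every stroke array. The change was -1.03, with an exact two-sided permutation p of 0.1, the smallest that 3 against 3 arrays allow; adjusted over the 5 pairs of genes compared it was also 0.1.

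Mfge8, the bridge to integrins, had control values of 8.16, 8.81 and 8.41 and stroke values of 8.53, 8.70 and 8.27. The stroke values again lay within the control range, and array 2 was the highest of each group. Its difference was 0.04 ± 0.20 (95% interval -0.42 to 0.50; limma adjusted p = 0.9998) and turned to -0.11 without control replicate 1 and to -0.06 without stroke replicate 2. The integrin subunit genes that form the receptors of MFGE8, named here outside the rule for naming genes, did not pass either: Itgav was at 8.77 and 8.99, Itgb3 at 6.05 and 5.88, and Itgb5 at 7.85 and 8.19 in control and stroke.

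Among the receptors, Axl had the largest difference and did not pass the test. Its control values were 8.12, 7.91 and 8.28 and its stroke values 8.83, 8.61 and 8.80. The groups did not overlap, with 0.33 between the highest control and the lowest stroke array, and array 2 was the lowest of each group. The means were 8.10 ± 0.18 and 8.74 ± 0.12 (SD, n = 3), a difference of 0.64 ± 0.15 (95% interval 0.30 to 0.98) or 1.56-fold. Its limma p was 0.00249 unadjusted and 0.239 adjusted over all genes, and 305 genes (1.04%) had a smaller p.

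Same-numbered arrays gave 0.71, 0.70 and 0.52 for Axl, positive in 3 of 3, as any pairing of groups that do not overlap would be. With the replicate number as a block the adjusted p of Axl was 0.0956, and over all 17 alternatives it lay between 0.0653 and 0.767, never passing. The authors' deposited table has Axl 1.63-fold higher with a false discovery rate of 0.2774. Axl lies at 25756500 to 25788924 of chromosome 7.

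Tyro3 ran in the opposite direction. It was at 8.73, 8.74 and 8.90 on the control arrays and at 8.31, 8.44 and 8.62 on the stroke arrays. All 3 stroke values were lower, with a gap of 0.11 between the groups. The difference was -0.33 ± 0.14 (95% interval -0.65 to -0.01), with a limma p of 0.0461 unadjusted and 0.858 adjusted over all genes. Same-numbered arrays gave -0.41, -0.29 and -0.28. The neuron markers, listed because TYRO3 is mainly neuronal, had a median difference of 0.01, with 0 of 8 called by limma and 0 at an unadjusted p under 0.05. Tyro3 lies at 119797740 to 119818104 of chromosome 2.

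Mertk, the TAM receptor best known for clearing photoreceptor debris in the eye and apoptotic cells in macrophages, had control values of 8.24, 7.69 and 8.41 and stroke values of 8.45, 8.23 and 8.32. The groups overlapped, and control array 2 was the lowest of the 6. The difference was 0.22 ± 0.20 (95% interval -0.23 to 0.68; limma adjusted p = 0.9998). Without control replicate 2 it was 0.02. Mertk lies at 128698915 to 128803162 of chromosome 2.

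**Figure D2:**
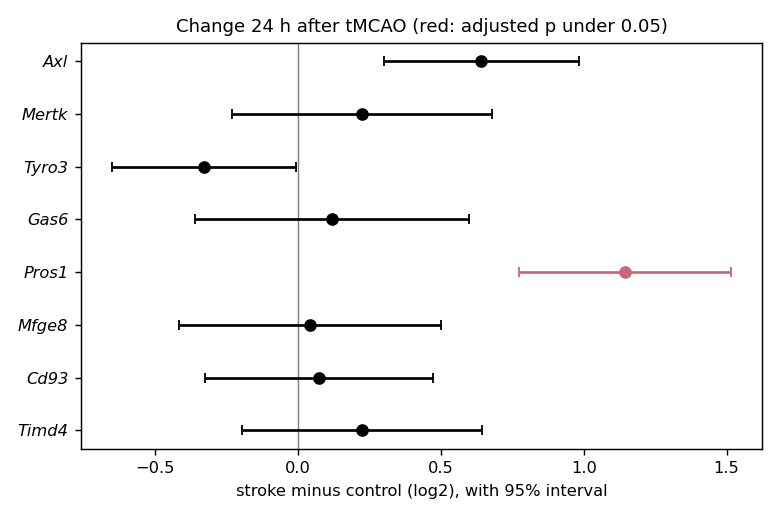
Difference between stroke and control (log2, horizontal axis) for each gene, with the 95% interval from limma; red marks an adjusted p under 0.05 over all genes. Pros1, at 1.15, is the only gene in red, the interval of Axl runs from 0.30 to 0.98, and that of Tyro3 ends just below 0.

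The 3 receptors were also compared with each other within arrays, which removes what an array does to all of them alike. Axl minus Tyro3 was -0.61, -0.83 and -0.62 in control and 0.52, 0.16 and 0.18 in stroke, a change of 0.97. Axl minus Mertk changed by 0.42, from -0.0083 ± 0.20 to 0.41 ± 0.06 (SD, n = 3). Mertk minus Tyro3 changed by 0.55, from -0.68 ± 0.32 to -0.12 ± 0.23, and Axl minus Gas6, its highest-affinity ligand, by 0.52, from -1.54 ± 0.17 to -1.02 ± 0.13. In all of these pairs the stroke arrays lay above the control arrays. For Axl minus Tyro3 this follows from the single genes, whose groups were apart in opposite directions, and it adds nothing to them. The pairs share genes and were chosen with earlier results known, so they are not separate observations. Of single genes, 11.2% had groups that did not overlap in either direction, and the share among all gene pairs was not computed. Each exact two-sided permutation p was 0.1, the smallest this permutation test allows with 3 against 3 arrays, and 0.1 after adjustment over the 5 pairs, so this test could not have reached 0.05 for any pair. A zero in these within-array differences has no meaning, since probes of different genes differ in brightness. Only the change between groups is read.

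**Figure D3:**
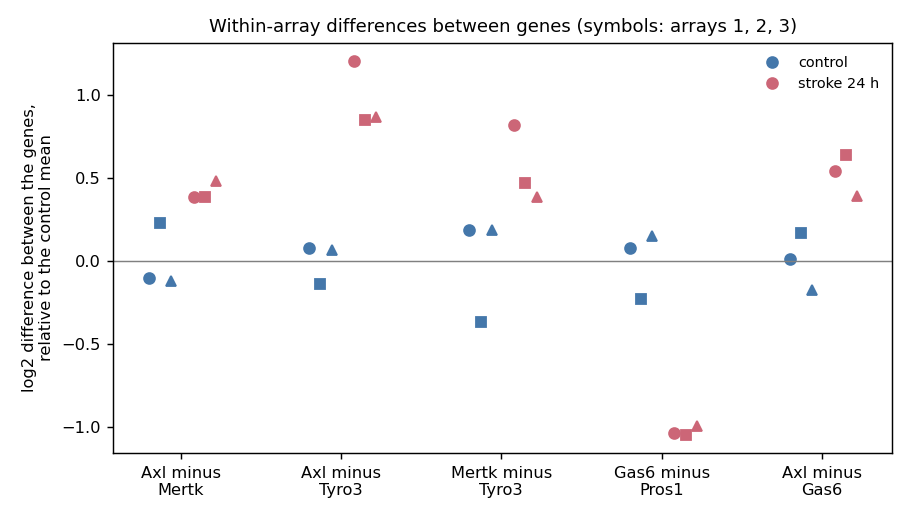
Within-array differences between the log2 signals of 2 genes (vertical axis, set to 0 at the control mean) for the 5 pairs compared, with blue for control, red for stroke and the symbol for the array number. The red and blue points do not overlap in any pair, and Gas6 minus Pros1 falls while the other 4 rise. For Axl minus Tyro3 the separation follows from the values of the single genes.

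Cd93 and Timd4 showed overlapping groups. Cd93 was at 6.10, 5.92 and 6.15 in control and 6.15, 5.83 and 6.402 in stroke. Its difference was 0.07 ± 0.17 (95% interval -0.32 to 0.47; limma adjusted p = 0.9998), and without stroke replicate 3 it was -0.06. The endothelial markers, listed because CD93 is also endothelial, had a median difference of -0.02, with 0 of 10 called by limma and 1 at an unadjusted p under 0.05. Cd93 lies at 148436651 to 148443535 of chromosome 2.

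Timd4 was at 4.53, 4.44 and 4.39 in control and 4.69, 5.003 and 4.34 in stroke. These values are lower than the array medians, with no evidence that they exceed background, and stroke array 3 lay below every control array while the other stroke arrays lay above them. The difference was 0.22 ± 0.18 (95% interval -0.20 to 0.64; limma adjusted p = 0.9998). Border-associated macrophage markers, listed because TIM-4 marks resident macrophages, had a median of 0.45, with 0 of 7 called by limma and 5 higher at an unadjusted p under 0.05. Timd4 lies at 46810786 to 46844333 of chromosome 11 and Mfge8 at 79133768 to 79149060 of chromosome 7.

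Counted together, 1 of the 8 genes rose, 0 fell and 7 did not pass (limma), and 3 had an unadjusted p under 0.05 (Pros1, Axl and Tyro3), against 5.76% of all genes. The groups were apart upwards in 2 genes and downwards in 1, against 6.34% and 4.89% of all genes. The median difference was 0.17, beside -0.01 over all genes. Axl, Mertk, Gas6, Pros1 and Cd93 had their lowest value on array 2 in control and also in stroke, while Mfge8 had its highest there.

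The genes whose pattern over the 6 arrays was most like that of Pros1 were Il13ra1, a receptor chain for interleukin 13, Fas, the death receptor, and Muc1, a membrane mucin. Likeness was the root mean square difference between centred log2 values, which was 0.0565 for Il13ra1, 0.0708 for Fas and 0.107 for Muc1. Il13ra1 rose by 1.13 (limma adjusted p = 0.0269) and Muc1 by 1.29 (limma adjusted p = 0.0112), while Fas differed by 1.12 (limma adjusted p = 0.0584). Because these genes were chosen by likeness to Pros1 on the same 6 arrays, differences close to that of Pros1 follow from the choice. They are no separate support for its rise. The control signal of Fas, at 4.28, and of Muc1, at 4.598, is not shown to be above background. The other 7 genes spanned less than 1 log2 unit over the arrays, and no such neighbours were sought for them.

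The rest of the efferocytosis pathway was followed in 8 lists with 90 measured genes. Of these, 4 rose and 0 fell (limma), 26 (28.9%) had an unadjusted p under 0.05, and the median difference was 0.16. Over all genes 0.421% rose, 5.76% had an unadjusted p under 0.05 and the median was -0.01, and the counts of each list below stand against these shares. The genes that rose were P2ry6, the UDP receptor that triggers phagocytosis by microglia, and P2ry2, a receptor for the find-me nucleotides ATP and UTP. Socs3, an inhibitor of cytokine signalling, and C4b, a complement component that coats targets, rose too. Of 91 genes in the 11 marker lists of cell types, 6 rose and 0 fell (limma), all 6 of them reactive astrocyte markers. Calls were thus not particular to the efferocytosis lists, but among the markers they came from that list alone.

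P2ry6 rose 3.12-fold from 6.70 ± 0.23 to 8.35 ± 0.19 (SD, n = 3; adjusted p = 0.0106), and P2ry2 rose 2.72-fold as measured, from 5.13 ± 0.23, a control signal not shown to exceed background, to 6.57 ± 0.22 (adjusted p = 0.0193). They were the 2 of 11 genes of dead cell exposure and find-me signals that passed, and the median of that list was 0.09. P2ry6 passed in 3 of 6 fits that left out 1 array and P2ry2 in 1, where their adjusted p reached 0.0753 and 0.0925. Without both arrays numbered 2 the values were 0.018 for P2ry6 and 0.0641 for P2ry2.

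C4b rose 2.06-fold from 6.05 ± 0.21 to 7.09 ± 0.03 (adjusted p = 0.0364) and was the 1 of 13 opsonins and bridging proteins to pass, with a list median of 0.67 and 8 genes higher at an unadjusted p under 0.05. It passed in 0 of the 6 fits that left out 1 array, where its adjusted p lay between 0.0655 and 0.181. With the replicate block, 3 genes of this list passed, C4b with C1qb and C1qc. The C1q chains, named here outside the rule because CD93 was described as a C1q receptor, were at 7.26 and 7.97 for C1qa, 8.93 and 10.19 for C1qb and 7.18 and 8.03 for C1qc in control and stroke, with adjusted p of 0.486, 0.133 and 0.202 in the fit without the block. Lgals3, which encodes galectin 3 and has been described as a further ligand of MERTK, was at 6.46 ± 0.53 and 7.56 ± 0.19 (adjusted p = 0.249) and was also named outside the rule.

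Among 8 genes by which TAM receptors dampen interferon and cytokine signals, Socs3 rose 2.50-fold from 6.35 ± 0.16 to 7.67 ± 0.29 (adjusted p = 0.03), and the other 7 did not pass. The list median was 0.20, and 3 genes had an unadjusted p under 0.05. Socs3 passed in 1 of 6 fits that left out 1 array, with an adjusted p of up to 0.173, and at 0.0732 without both arrays numbered 2 it did not pass.

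The remaining lists had 0 genes past the test by limma. Of 18 other phosphatidylserine and engulfment receptors, 4 were higher and 1 lower at an unadjusted p under 0.05 (median 0.09), and the brightest, Lrp1 and Adgrb1 (BAI1), differed by -0.09 and -0.32. Of 14 genes of engulfment signalling, 4 were higher at that level (median 0.07), with Rac1, the GTPase that drives the phagocytic cup, at -0.03 and its activator Elmo1 at 0.06. Of 13 genes for lipid export and corpse digestion, 4 were higher (median 0.24), with the lysosomal membrane protein Lamp1 at 0.19 and the protease cathepsin D (Ctsd) at 0.52. For the 6 do-not-eat-me genes, 0 had an unadjusted p under 0.05 (median -0.04), and Cd47 and its receptor Sirpa differed by 0.03 and -0.08. The same held for 7 genes of TAM shedding and vitamin K carboxylation (median 0.19), where the sheddase Adam10 differed by 0.05 and Vkorc1, which recycles the vitamin, by 0.19.

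**Figure D4:**
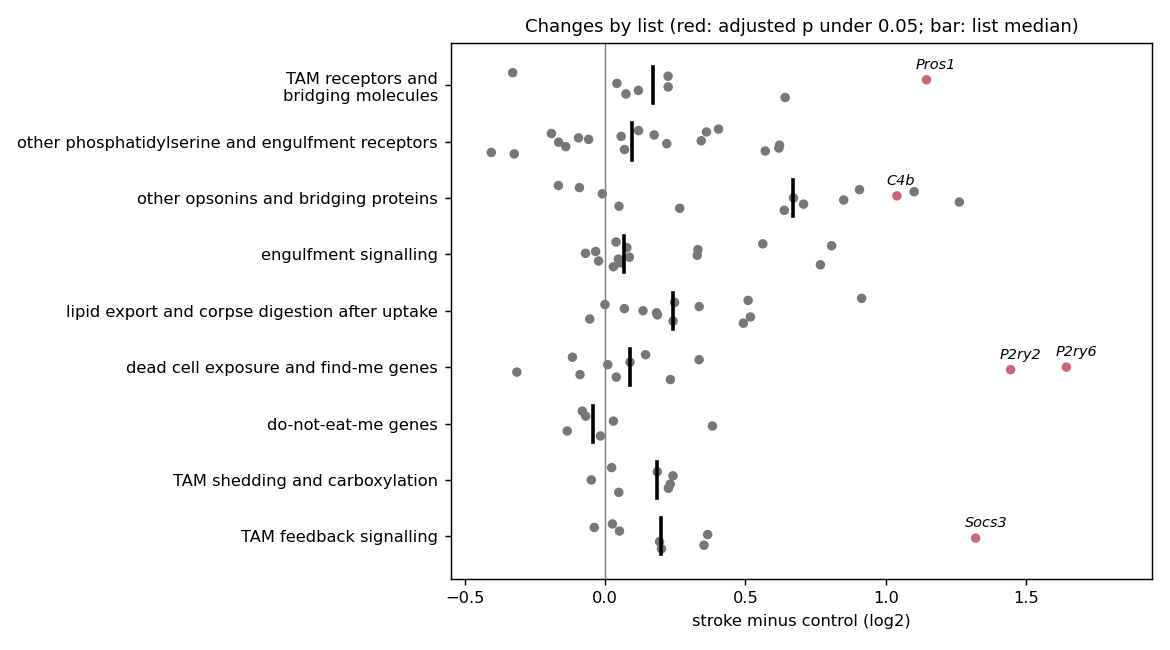
Difference between stroke and control (log2, horizontal axis) for the 8 genes and the 8 other efferocytosis lists, 1 point per gene, with red for an adjusted p under 0.05 and a black bar for the list median. Pros1, C4b, P2ry2, P2ry6 and Socs3 are the genes in red, and the opsonin list has the highest median at 0.67.

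Marker lists of other cells moved in the same arrays, and their part in the differences of Pros1, Axl and the other genes was not tested. The mean signal of 9 reactive astrocyte markers ran from 6.24 to 6.31 in control and from 8.09 to 8.23 in stroke, with 6 of 9 called (Lcn2, Serpina3n, Timp1, Vim, Osmr and S1pr3). Border-associated macrophage markers ran from 5.58 to 5.68 and from 5.91 to 6.15, with the brightest, Lyve1 and Cbr2, at 0.57 and 0.40. Monocyte markers ran from 4.94 to 5.13 and from 5.28 to 5.50, with Fn1 and Itga4 at 0.35 and -0.01. Fn1 varied widely in stroke (SD 1.08, n = 3), and its stroke array 2 (6.55) lay below every control array. Several monocyte markers, such as Ccr2 at 3.79 in control, are not shown to exceed background. Neutrophil markers ran from 4.21 to 4.53 and from 4.64 to 4.76, with a median difference of 0.16 and S100a8 and Cxcr2 at 1.24 and 0.10. S100a8 and S100a9 (1.10, named after its value was seen) had differences above 1, the other 6 neutrophil markers lay between -0.20 and 0.24, and the signals of this list are not shown to exceed background. With the replicate block S100a8 and S100a9 passed, and S100a8 also passed without both arrays numbered 2. General astrocyte markers ran from 8.58 to 8.79 and from 8.89 to 9.09, with Aldoc and Slc1a3 at 0.20 and 0.60. In these 5 lists every stroke array lay above every control array, and in the last 4 of them 0 genes passed without the block (limma). At an unadjusted limma p under 0.05, 8 of 9 reactive astrocyte, 5 of 7 border-associated macrophage and 3 of 8 monocyte markers were higher. So were 2 of 8 neutrophil and 3 of 8 general astrocyte markers. With the replicate block 8 marker genes passed over all lists, against 6 without it.

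Ranges overlapped for the homeostatic microglia markers, at 7.004 to 7.39 and 7.35 to 7.59, where Selplg differed by -0.14. They overlapped too for endothelial (5.43 to 5.88 and 5.41 to 6.07; median -0.02, 5 of 10 positive, the brightest Cdh5 and Emcn at 0.65 and 0.56), mural (7.30 to 7.47 and 7.30 to 7.45; median -0.00099, 3 of 6 positive, the brightest Rgs5 and Acta2 at -0.14 and -0.34), neuron (11.24 to 11.39 and 11.28 to 11.35; Snap25 0.01, Syt1 -0.10) and oligodendrocyte lineage markers (10.37 to 10.56 and 10.48 to 10.73; Mobp 0.29). Lymphocyte markers were at 5.23 to 5.47 in control and 5.19 to 5.21 in stroke, every stroke array below every control array, with Trbc2 and Nkg7 at -0.11 and -0.19. The other lymphocyte markers lay below the array medians and are not shown to exceed background. In these 6 lists 0 genes passed, and at an unadjusted p under 0.05 there were 4 of 11 for microglia, 1 of 10 for endothelial, 1 of 6 for mural, 0 of 8 for neuron, 1 of 8 for oligodendrocyte lineage and 1 of 8 for lymphocyte markers.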

How the data were processed

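Per the labels, 100 ng of ribosome-bound mRNA was used for each sample and measured on 6 Affymetrix MoGene-2_0-st arrays. The value table as deposited holds log2 signals for 41345 transcript clusters, already summarised and scaled by the authors with Transcriptome Analysis Console 3.0, per the series' design text and the submitters' processing notes. The sources used here do not say how signals were summarised and scaled or which test the authors ran, and detection calls were not used. A workbook deposited by the authors gives, per the file headers (annotation na36, mm10), log2 group averages, a fold change (a score written as minus the inverse where stroke is lower), p-values and false discovery rates. Gene symbols come from it.

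Clusters not in the workbook (6873), with no symbol (2599) or with several (1902) were left out, and where a symbol had several clusters (381 symbols) the brightest was used, leaving 29458 genes. Stroke was compared with control by lmFit and eBayes of limma 3.58.1 (R 4.3.3), adjusted by Benjamini-Hochberg over all genes at a threshold of 0.05. In simulated data for this comparison (29458 genes, 200 changed), the fit recovered 40% of changes of 1 log2 unit and 99% of changes of 2. The simulated arrays varied independently, without the shared deviations of the real arrays given below. These shares may therefore not hold for the real arrays. Differences between genes within arrays were tested by exact permutation. The members, lists and tests were chosen with earlier results of these data known. Named were the 8 members, up to 4 called genes of each list (or its 2 brightest), the 2 brightest and any called marker, the 3 nearest patterns of members spanning over 1 log2 unit, Itgam and Rpl10a; a few genes so named are not reported here.

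Alternatives were a replicate block, quantile normalization, median centring, filters at the 25th percentile and the median, trend and robust eBayes, array weights, all clusters, the mean over clusters, no moderation, and leaving out each array or both numbered 2. Same-numbered arrays deviated together (r = 0.299, 0.576 and 0.39 across genes, against -0.46 to 0.237 for unlike numbers). Arrays 1 and 3 also correlated positively across numbers (0.237 and 0.128), so the match by number was clearest for array 2. Deviations were taken from means of 3 arrays, so these values are not independent. The block was taken as a paired analysis beside the main fit. The main fit and the permutation tests do not use the pairs, and the labels do not name a shared litter or day. Coordinates are from the RefSeq annotation of GRCm38.p6, the assembly of mm10.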

Additional observations from a re-analysis of the deposited data

Results flagged for a closer look

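The cluster shared by Gfap and the gene model Gm39395 lay outside the gene comparison because it carries 2 symbols. It was singled out because it passed the test given below at an adjusted p under 0.05, so its passing follows from the choice. Gfap, the main intermediate filament gene of astrocytes, is a member of the astrocyte marker list. The cluster rose by 1.82 on the log2 scale, from 9.30 ± 0.34 to 11.13 ± 0.17 (SD, n = 3; limma adjusted p = 0.0139 when every cluster with any symbol was tested). Edil3, a bridging protein related to MFGE8, shares its cluster with Gm38504, which was at 9.95 ± 0.11 and 9.90 ± 0.14 (limma adjusted p = 0.9998).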

How the results depend on the processing

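Pros1 stayed higher under all 17 alternatives, by 1.07 to 1.26, and passed in 10 of them. It did not pass without moderation (1.15, adjusted p = 0.336) or without both arrays numbered 2 (1.19, adjusted p = 0.0582). Nor did it pass in 5 of the 6 fits that left out 1 array (1.07 to 1.25). The members called were then 0 without moderation and without both arrays numbered 2, and 0 to 1 without single arrays. The replicate block changed no member's call. Over all genes, 217 were called with array weights, 0 without moderation (1841 at an unadjusted p under 0.05, and 125 by limma), 70 without both arrays numbered 2 and 25 to 74 without single arrays. Of the 90 other efferocytosis genes, 4 were called, 6 with the replicate block, 2 without both arrays numbered 2 and 0 to 3 without single arrays, alternatives chosen after seeing the data. Sign changes came when single arrays were left out: Gas6 ran from -0.062 to 0.295 (-0.062 without control replicate 2), Mfge8 from -0.11 to 0.22 (-0.06 without stroke replicate 2) and Cd93 from -0.062 to 0.22 (-0.062 without stroke replicate 3). Axl, Mertk and Timd4 stayed higher and Tyro3 lower under every alternative that gave a value, and none of them passed; Timd4 had no value with the filter at the median. The 5 within-array differences between genes kept their direction. Signal over background could not be judged, which limits low signals such as those of Timd4.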
